A study of Mus musculus with 8 samples.

Results

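The unfolded protein response and the integrated stress response are linked programmes by which cells adjust to misfolded protein in the endoplasmic reticulum (ER) and to amino acid shortage. They were examined here through 39 genes in the mouse striatum. The genes were chosen by name: every non-control probe whose gene name in the scanner files, or whose symbol in the series table, was one of the 39 was taken. All 39 were found, on 51 probes, among 17584 named genes tested. They were divided by role into 7 sensors and core factors, 19 genes of the ATF4 branch and 13 genes of ER folding and degradation. Every member passed the filter on dim probes with at least 1 probe, and the probe standing for each gene was well above background on all 8 arrays.

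Striatal RNA of 4-week-old male mice was hybridised to 1-colour Agilent arrays, 4 from WT controls and 4 from R6/2 mice. The R6/2 line expresses exon 1 of human huntingtin with an expanded CAG repeat, and so models Huntington's disease with a fragment of the protein rather than the whole. The labels number the samples as replicates without naming separate animals, so a p-value here reflects sample-to-sample spread that may hold technical variation. Each value is a log2 signal relative to the 75th percentile of its own array, and each difference is R6/2 minus WT on that log2 scale, with its standard error (SE) from limma and n = 4 per genotype.

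As background, sensors in the ER membrane start the unfolded protein response. PERK (Eif2ak3) phosphorylates the translation factor eIF2, which lowers protein synthesis in general while it favours translation of ATF4. IRE1 (Ern1) splices the Xbp1 mRNA into the form that encodes the active factor, and ATF6 is cut in the Golgi to release a transcription factor. GCN2 (Eif2ak4) senses uncharged tRNA and reaches ATF4 through the same phosphorylation, which is why the ATF4 arm is also called the integrated stress response. ATF4 targets serve amino acid synthesis, amino acid import and one-carbon metabolism, while XBP1 and ATF6 raise chaperones and the machinery that returns misfolded protein for degradation.

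Over the whole module 27 genes had a positive difference and 12 a negative one, with a median of 0.09 against 0.02 for all genes tested. Of the 39, 1 was called at an adjusted p under 0.05 by limma with Benjamini-Hochberg adjustment over all 35121 tested probes. That is 2.56% of the module, beside 1.94% of all genes. In the higher direction 0 members were called, against 0.478% of all genes, and in the lower direction 1, against 1.47%. At an unadjusted p under 0.05 there were 8 members, 20.5%, beside 18.9% of all genes: 4 higher, beside 9.05% of all genes, and 4 lower, beside 9.83%. The 4 R6/2 arrays lay wholly to 1 side of the 4 WT arrays for 8 members, 20.5%, beside 14.4% of all genes: 4 above, beside 7.67%, and 4 below, beside 6.72%. The shares by both p-value rules were thus near those of the array as a whole. These counts take the brightest probe of each gene. Slc7a5, counted as lower and as below, had another probe of opposite sign. With the replicate number as a block, 0 members were called by limma, beside 1.04% of all genes. In that fit 12 of the 39 had an unadjusted p under 0.05, beside 24.4% of all genes. By direction 8 members were higher, beside 12% of all genes, and 4 lower, beside 12.5%. In the authors' deposited table, 0 of the 51 member probes had an adjusted p under 0.05, beside 144 of all 55681 probes. The lowest among the member probes was 0.0915, for Slc7a5.

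**Figure D1:**
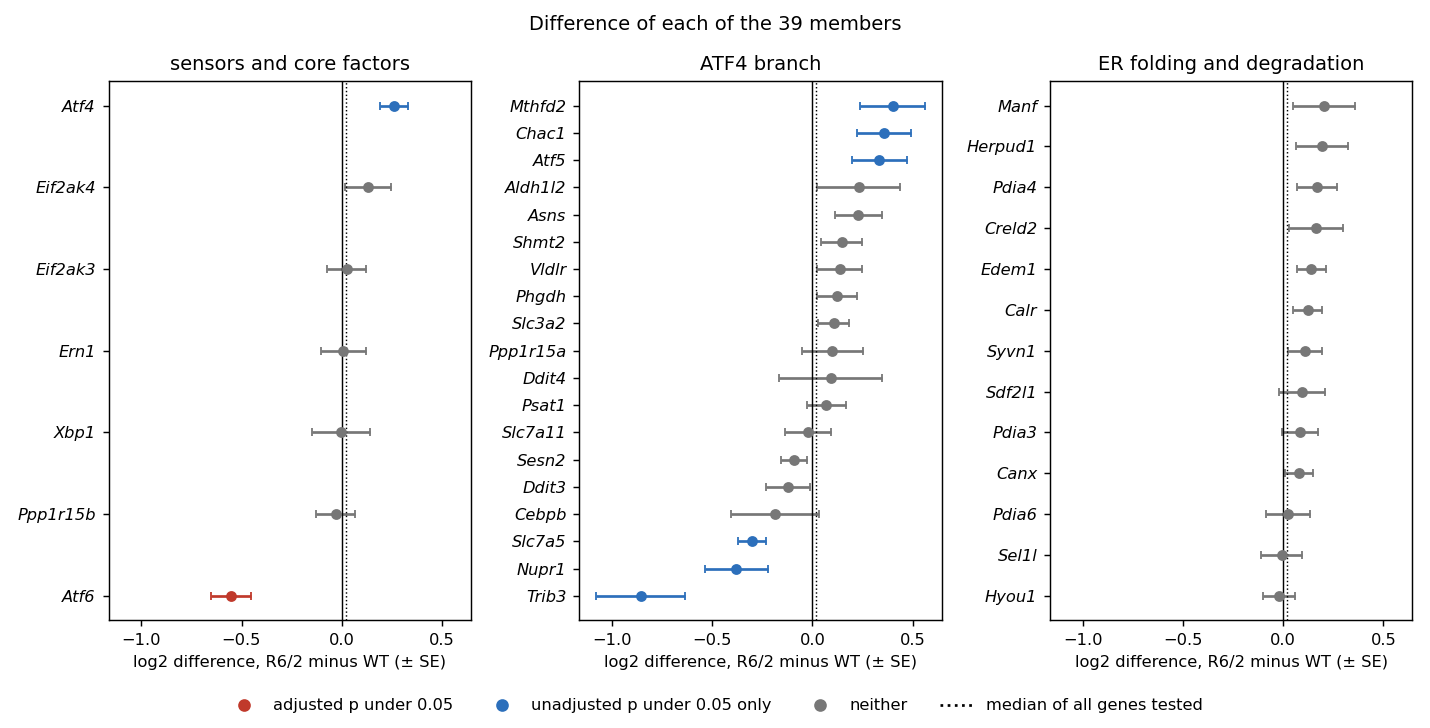
Log2 difference (R6/2 minus WT, horizontal axis) with its SE for each of the 39 genes, one panel per role, n = 4 arrays per genotype. Red marks an adjusted p under 0.05, blue an unadjusted p under 0.05 only and grey neither, and the dotted line is the median of all genes tested, 0.02. The ATF4 branch spread from -0.86 for Trib3 to 0.40 for Mthfd2, whereas the ER genes lay between -0.02 and 0.20.

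Among the sensors and core factors, Atf6 was lower in R6/2. Its probe lies on chromosome 1 at 172635311 to 172635370 on the minus strand of mouse build mm9, as the scanner files give it. Atf6 values were 0.03, -0.02, -0.30 and 0.08 on WT arrays 1 to 4 and -0.47, -0.60, -0.66 and -0.68 on R6/2 arrays 1 to 4. Every R6/2 array was below every WT array, and WT 3 was the lowest of its genotype. The difference was -0.55 ± 0.10 (SE, n = 4 per genotype; limma adjusted p = 0.0443), so that the R6/2 signal stood at 68.3% of the WT signal. The call rested on a narrow margin. With the replicate number as a block the adjusted p of Atf6 was 0.0625, and leaving out any array other than WT 3 gave 0.0697 to 0.119, while without WT 3 it was 0.0244.

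Atf4, the factor at the head of the integrated stress response, had values of 5.38, 5.30, 5.27 and 5.27 in WT and 5.50, 5.67, 5.51 and 5.57 in R6/2. The R6/2 arrays were all above the WT arrays, and the spread within each genotype was small (SD 0.05 in WT and 0.08 in R6/2). The difference was 0.26 ± 0.07 (SE, n = 4 per genotype; limma adjusted p = 0.108), which did not pass. Atf4 passed with normexp background correction and quantile normalization together (adjusted p = 0.0341; 0.0597 with quantile normalization alone) and with a trended, robust prior (adjusted p = 0.0427). A second Atf4 probe, upstream on chromosome 15 at 80086639 to 80086698, differed by 0.17 ± 0.09 (SE, n = 4 per genotype; limma adjusted p = 0.363), with overlapping genotypes. The production of ATF4 protein is set largely at translation, which arrays do not measure.

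The remaining sensors had differences within the spread of their arrays. Eif2ak3, which encodes PERK, had 0.68, 0.59, 0.31 and 0.52 in WT and 0.59, 0.59, 0.40 and 0.60 in R6/2, a difference of 0.02 ± 0.10 (SE, n = 4 per genotype; limma adjusted p = 0.921). Both replicate 3 arrays were the lowest of their genotype for Eif2ak3. Ern1, which encodes IRE1, had -2.17, -2.30, -1.85 and -2.26 in WT and -2.002, -2.26, -2.10 and -2.19 in R6/2, a difference of 0.01 ± 0.11 (SE, n = 4 per genotype; limma adjusted p = 0.978). The other 3 Ern1 probes were well above background on at most 3 arrays and were not tested. Xbp1 had 4.67, 4.79, 4.48 and 4.54 in WT and 4.84, 4.78, 4.24 and 4.62 in R6/2, and its difference was -0.0034 ± 0.14 (SE, n = 4 per genotype; limma adjusted p = 0.993). The sign of the differences of Eif2ak3, Ern1 and Xbp1 turned when single arrays were left out. The spliced and unspliced forms of Xbp1 were not told apart here. Eif2ak4, which encodes GCN2, had a difference of 0.13 on its brightest probe and -0.07 and 0.22 on the other 2. Ppp1r15b, the constitutive subunit that directs the eIF2 phosphatase, differed by -0.03.

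**Figure D2:**
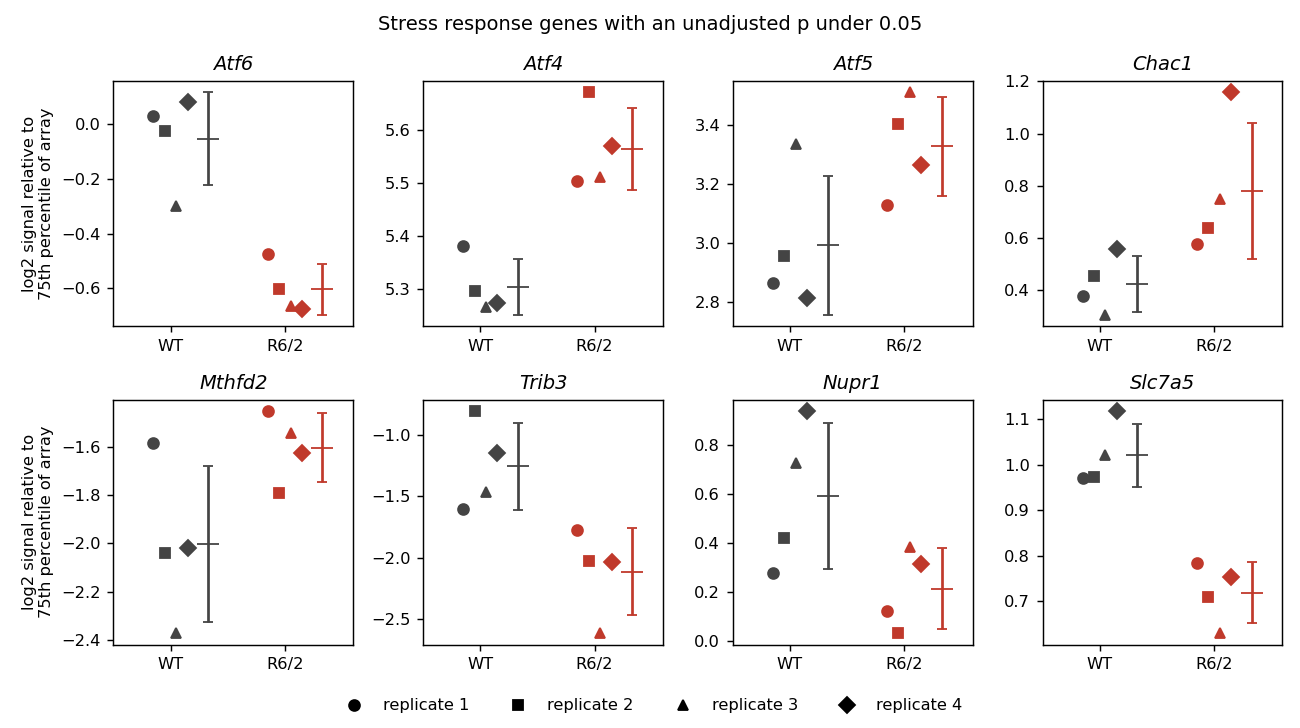
Log2 signal relative to the 75th percentile of the array (vertical axis, its own range in each panel) for the 8 genes with an unadjusted p under 0.05, WT in grey and R6/2 in red. Each point is an array, its shape is the replicate number, and the bar is the mean ± SD of 4 arrays. The genotypes separated completely for Atf6, Atf4, Chac1, Trib3 and Slc7a5 and overlapped for Atf5, Mthfd2 and Nupr1. Each panel shows the brightest probe of its gene. On the other probes of Atf4 and Slc7a5 the genotypes overlapped, and that of Slc7a5 had the opposite sign.

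The ATF4 branch had no common direction. Of its 19 genes 12 had a positive and 7 a negative difference, with a median of 0.10, and 0 were called by limma in either direction. At an unadjusted p under 0.05 there were 6, with Mthfd2, Chac1 and Atf5 higher, Trib3 and Nupr1 lower, and Slc7a5 lower on its brighter probe only. That is 31.6% of the branch beside 18.9% of all genes. The mean of the 19 genes, each centred over the 8 arrays, was -0.00039, 0.0045, -0.03 and -0.02 on WT arrays 1 to 4 and 0.00040, 0.02, 0.03 and -0.0066 on R6/2 arrays 1 to 4, so the branch mean of the genotypes overlapped. Within replicate numbers 1 to 4 the R6/2 branch mean was above by 0.00079, 0.01, 0.05 and 0.01. Its median was 0.06 without WT 3 and 0.05 without WT 4.

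Targets of ATF4 are bound through a composite site for a C/EBP family member and an ATF member. The core TGATGNAAN was searched on both strands in the RefSeq promoter windows of build GRCm38.p6, which run from 250 bases before to 50 bases after each start. Windows were matched for 33 members, 37 in all. The core was found in 6 of 20 windows of the ATF4 branch (30.0%), in 1 of 11 of the ER genes and in 3.95% of all 32851 promoters. As the branch genes were chosen for their role, their share describes them and is not a test. The 6 belong to Chac1, Nupr1, Asns, Vldlr, Slc7a11 and Trib3, of which Trib3 has it after the start. The sequences below set side by side the cores of the branch genes that lay before the start, from members whose values went in opposite directions, with the core in capitals, written along the strand of the gene. A match describes these letters and is not a measurement of binding.
Chac1, chr2:119351033-119351071, plus strand: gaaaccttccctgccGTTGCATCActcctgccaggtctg
Nupr1, chr7:126625558-126625596, minus strand: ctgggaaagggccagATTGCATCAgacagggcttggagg
Asns, chr6:7693210-7693247, minus strand: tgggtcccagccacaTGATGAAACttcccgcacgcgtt
Vldlr, chr19:27216804-27216842, plus strand: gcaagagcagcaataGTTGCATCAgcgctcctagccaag
Slc7a11, chr3:50443656-50443694, minus strand: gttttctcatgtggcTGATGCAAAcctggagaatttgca
Slc7a11, chr3:50443638-50443676, minus strand: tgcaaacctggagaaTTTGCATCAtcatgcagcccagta
Chac1, Nupr1, Vldlr and the second Slc7a11 site hold the core on the strand opposite the gene, while Asns and the first Slc7a11 site hold it along the gene. Of these 5 genes Chac1, Asns and Vldlr had positive differences and Nupr1 and Slc7a11 negative ones.

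The transcription factors and regulators of the branch were divided. Atf5, a factor that like ATF4 is favoured when eIF2 is phosphorylated, had 2.86, 2.96, 3.33 and 2.82 in WT and 3.13, 3.40, 3.51 and 3.26 in R6/2. Only WT 3 reached into the R6/2 range, and the difference was 0.33 ± 0.14 (SE, n = 4 per genotype; limma adjusted p = 0.261). Trib3, a pseudokinase that ATF4 and CHOP induce, had -1.60, -0.80, -1.47 and -1.15 in WT and -1.77, -2.03, -2.62 and -2.03 in R6/2. All 4 R6/2 arrays were below all WT arrays for Trib3, and R6/2 3 was the lowest. Its difference, -0.86 ± 0.22 (SE, n = 4 per genotype; limma adjusted p = 0.106), was the largest in size of the 39 members and left the R6/2 signal at 55.2% of WT, yet did not pass.

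Ddit3, which encodes CHOP, the factor tied to cell death in prolonged ER stress, had 0.40, 0.58, 0.23 and 0.53 in WT and 0.50, 0.24, 0.14 and 0.38 in R6/2. The genotypes overlapped, with a Ddit3 difference of -0.12 ± 0.11 (SE, n = 4 per genotype; limma adjusted p = 0.625). Nupr1, a small stress-induced chromatin protein, had 0.28, 0.42, 0.73 and 0.94 in WT and 0.12, 0.03, 0.38 and 0.32 in R6/2. Within each replicate number the R6/2 array was the lower, though the genotypes overlapped, and the Nupr1 difference was -0.38 ± 0.16 (SE, n = 4 per genotype; limma adjusted p = 0.270). Sesn2, a stress-induced inhibitor of mTORC1 signalling, was at 0.26 on all 4 WT arrays and at 0.06, 0.23, 0.16 and 0.23 in R6/2. All R6/2 arrays were below WT for Sesn2, and the difference was -0.09 ± 0.07 (SE, n = 4 per genotype; limma adjusted p = 0.533).

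Cebpb, a C/EBP partner of ATF4, ranged from -0.49 to 0.62 in WT with WT 3 the highest, and from -0.37 to -0.10 in R6/2. Ppp1r15a, which encodes the stress-induced phosphatase subunit GADD34, was 2.10 on WT 3 and 1.404 to 1.497 on the other WT arrays, and 1.66 to 1.80 in R6/2. Ddit4, another stress-induced inhibitor of mTORC1, was lowest on the replicate 4 array of both genotypes (3.38 in WT and 3.61 in R6/2), with 4.08 or more on every other array. The differences of Cebpb, Ppp1r15a and Ddit4 were -0.19, 0.10 and 0.09. Without WT 3 those of Cebpb and Ppp1r15a were 0.042 and 0.26, and without WT 4 that of Ddit4 was -0.12.

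The metabolic enzymes of the branch all had positive differences, with none past the threshold. Mthfd2, a mitochondrial enzyme of one-carbon metabolism, had -1.58, -2.04, -2.37 and -2.02 in WT and -1.45, -1.79, -1.54 and -1.63 in R6/2. WT 1 lay among the R6/2 arrays, and the Mthfd2 difference was 0.40 ± 0.16 (SE, n = 4 per genotype; limma adjusted p = 0.260). Chac1, which degrades glutathione, had 0.37, 0.45, 0.30 and 0.56 in WT and 0.58, 0.64, 0.75 and 1.16 in R6/2. The R6/2 arrays were all above WT for Chac1, by a narrow gap, with R6/2 4 far the highest, and the difference was 0.36 ± 0.13 (SE, n = 4 per genotype; limma adjusted p = 0.226). Without R6/2 4 the Chac1 difference was 0.23.

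Asns, asparagine synthetase and a standard readout of ATF4, had 4.48, 4.43, 4.02 and 4.44 in WT and 4.58, 4.57, 4.44 and 4.69 in R6/2. Each R6/2 array was above the WT array of its number, and WT 3 was low. The Asns difference was 0.23 ± 0.12 (SE, n = 4 per genotype; limma adjusted p = 0.362) and was 0.12 without WT 3. The differences were 0.23 for Aldh1l2 and 0.15 for Shmt2, both mitochondrial folate enzymes, and 0.07 for Psat1, of serine synthesis. Without WT 3, which was at -3.56 against -2.89 or more on the other arrays, the Aldh1l2 difference was 0.015, and without R6/2 3 that of Shmt2 was 0.08. Phgdh, the first enzyme of serine synthesis, is uncertain: its brightest probe is placed on chromosome 17 and differed by 0.12, while its other 2 probes, on chromosome 3, differed by 0.19 and 0.11.

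The amino acid transporters of the branch had no common direction. Slc7a5, the LAT1 light chain that imports large neutral amino acids, had 0.97, 0.97, 1.02 and 1.12 in WT and 0.78, 0.71, 0.63 and 0.75 in R6/2. The genotypes did not overlap on this Slc7a5 probe (chromosome 8, 124430996 to 124431055), and the difference was -0.30 ± 0.07 (SE, n = 4 per genotype; limma adjusted p = 0.0768). The other Slc7a5 probe, at 124405136 to 124405195, had -0.48, -0.33, -0.67 and -0.36 in WT and -0.41, -0.15, -0.19 and -0.21 in R6/2. Its difference had the opposite sign, 0.22 ± 0.10 (SE, n = 4 per genotype; limma adjusted p = 0.311), so no direction is given for Slc7a5. The brighter probe of Slc7a5 passed with normexp background correction and quantile normalization together (adjusted p = 0.0210; 0.0735 with quantile normalization alone) and with a trended, robust prior (adjusted p = 0.0456), and the mean of both probes did not (adjusted p = 0.789). Slc3a2, the heavy chain that pairs with it, differed by 0.11, and Slc7a11, the cystine importer, by -0.02. Vldlr, a lipoprotein receptor that PERK signalling can raise, differed by 0.14.

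The ER folding and degradation genes formed a narrower group, with small positive differences. Of the 13 genes 11 were positive, 84.6%, beside 54% of all genes, and the median was 0.11. None was called by limma, 0 had an unadjusted p under 0.05, and 0 of their probes passed in the authors' deposited table. The 4 R6/2 arrays lay wholly above WT for Edem1 and Calr, 15.4% of the group, beside 7.67% of all genes.

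Same-numbered arrays of the genotypes deviated together across the probes that stood for the tested genes, so the numbers were treated as pairs. They also shared a column of the slide, so pairing of samples and position on the slide cannot be told apart. The deposited array names end in the same number in both genotypes for replicates 1 to 3, but not for replicate 4. In all 4 pairs the R6/2 array was the higher for 7 of the 13 ER genes, 53.8%, beside 21.5% of all genes. None of the 13 was lower in all 4 pairs, beside 16.8% of all genes. The 7 were Manf, Herpud1, Pdia4, Creld2, Edem1, Calr and Canx. For the ATF4 branch 4 of 19 were higher and 4 lower in all pairs, 21.1% each. In the blocked limma fit 3 of the 13, Herpud1, Manf and Pdia4, were higher at an unadjusted p under 0.05, beside 12% of all genes, and 0 were lower, beside 12.5%. The lowest blocked adjusted p of the group was 0.146, for Herpud1. The 13 genes are not replicates of each other, and no test of the group as a whole was made.

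**Figure D3:**
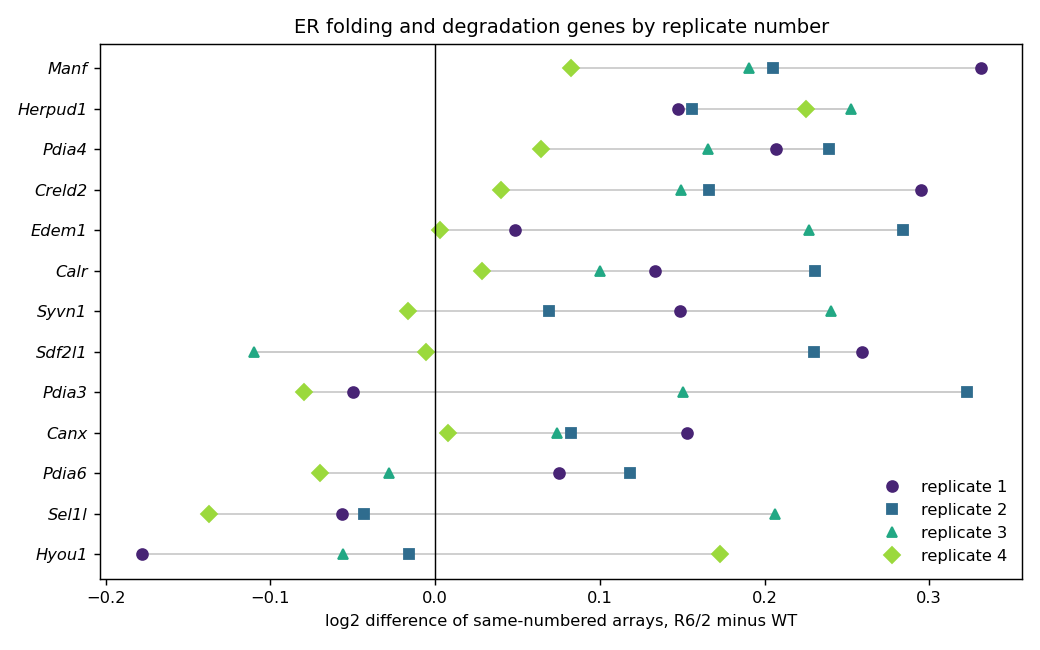
Log2 difference between the R6/2 and WT arrays of the same replicate number (horizontal axis) for the 13 ER folding and degradation genes, one point per pair, with a line over the range. All 4 points lie above 0 for Manf, Herpud1, Pdia4, Creld2, Edem1, Calr and Canx, and no gene has all 4 below 0.

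Averaged over the 13 genes, each centred over the 8 arrays, the ER group stood at 0.01, -0.02, -0.18 and -0.03 on WT arrays 1 to 4 and at 0.13, 0.14, -0.06 and -0.0025 on R6/2 arrays 1 to 4. The replicate 3 array was the lowest of each genotype. The genotypes overlapped, also outside replicate 3, as WT 1 (0.01) was above R6/2 4 (-0.0025). Within replicate numbers 1 to 4 the R6/2 array was above by 0.12, 0.16, 0.12 and 0.02. Without WT 3 the median of the 13 differences was 0.09.

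**Figure D4:**
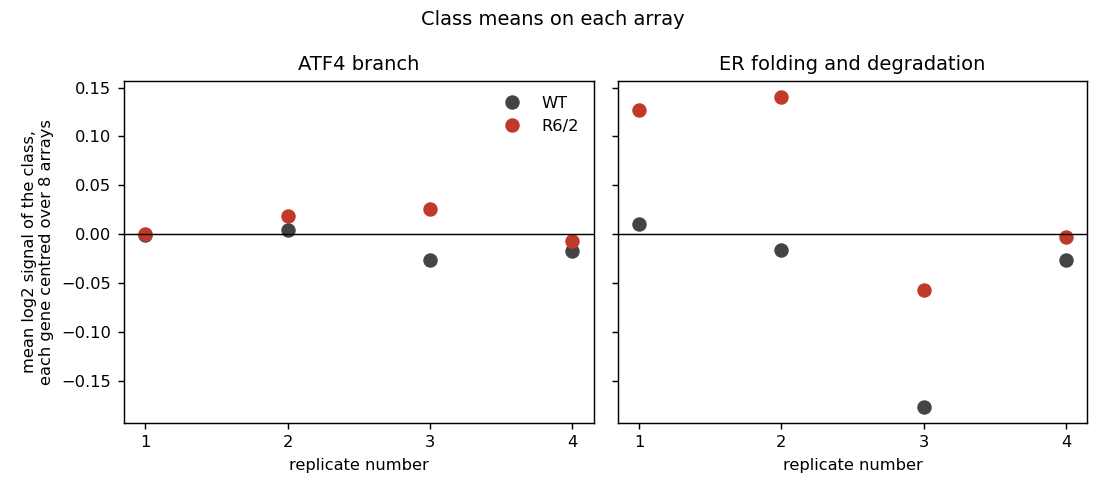
Mean log2 signal of the 19 ATF4 branch genes (left) and the 13 ER folding and degradation genes (right), each gene centred over the 8 arrays, against replicate number, WT in grey and R6/2 in red. In the ER panel the R6/2 point is above the WT point at each number, by 0.02 to 0.16, and both replicate 3 points are low, and in the ATF4 panel it is also above at each number, by 0.00079 to 0.05, with all points within 0.03 of 0.

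The promoters of the ER genes were searched for the ER stress response element, through which ATF6 acts with NF-Y, on both strands. The element is CCAAT and CCACG with 9 bases of any kind between them. It was present in 5 of the 11 ER windows (45.5%), in 0 of 20 windows of the ATF4 branch and in 0.119% of all 32851 promoters. TGACGTGG, the core of the unfolded protein response element, was in 0 of the 37 member windows and 0.676% of all promoters. The ER genes were chosen for their role, so their share describes them and is not a test. The 5 elements are shown with the whole element in capitals, written along the strand of the gene.
Calr, chr8:84847060-84847108, minus strand: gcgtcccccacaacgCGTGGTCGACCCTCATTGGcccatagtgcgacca
Canx, chr11:50325785-50325833, minus strand: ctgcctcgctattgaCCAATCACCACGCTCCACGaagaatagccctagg
Pdia6, chr12:17266476-17266524, plus strand: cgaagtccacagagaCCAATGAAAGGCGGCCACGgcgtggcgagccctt
Creld2, chr15:88819505-88819553, plus strand: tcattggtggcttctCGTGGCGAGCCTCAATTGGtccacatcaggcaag
Syvn1, chr19:6046517-6046565, plus strand: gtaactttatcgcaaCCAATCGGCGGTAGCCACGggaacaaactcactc
Canx, Pdia6 and Syvn1 hold the element along the gene and Calr and Creld2 on the opposite strand. Herpud1 holds no such element in its window, but it is the ER gene that carries the ATF4-type core, again in capitals.
Herpud1, chr8:94386301-94386339, plus strand: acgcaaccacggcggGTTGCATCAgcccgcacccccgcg
Calr, Canx and Creld2 were among the 7 genes higher in all 4 pairs, while Pdia6 and Syvn1, which also hold the element, were not. Manf, another of the 7, and Hyou1 had no promoter window and were not searched.

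Chaperones and oxidoreductases make up most of the group. Calr, the calcium-binding lectin chaperone calreticulin, had 3.64, 3.73, 3.75 and 3.74 in WT and 3.77, 3.96, 3.85 and 3.76 in R6/2. The R6/2 arrays were all above WT, 2 of them by a small gap, and the Calr difference was 0.12 ± 0.07 (SE, n = 4 per genotype; limma adjusted p = 0.433). Pdia4, a disulfide isomerase, had 0.18, 0.25, -0.01 and 0.13 in WT and 0.39, 0.49, 0.15 and 0.20 in R6/2. Each R6/2 array was above the WT array of its number although the genotypes overlapped, and the Pdia4 difference was 0.17 ± 0.10 (SE, n = 4 per genotype; limma adjusted p = 0.442).

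The other folding genes had differences of 0.09 for Pdia3 and 0.02 for Pdia6, both disulfide isomerases, 0.08 for Canx, the membrane partner of calreticulin, and -0.02 for Hyou1, a large chaperone of the HSP70 family. Manf, a secreted ER stress protein with neurotrophic activity, was 1.71, 1.70, 1.26 and 1.55 in WT and 2.04, 1.90, 1.45 and 1.63 in R6/2. Its 4 pair differences were 0.33, 0.21, 0.19 and 0.08, and the overall Manf difference was 0.20 ± 0.15 (SE, n = 4 per genotype; limma adjusted p = 0.556). Creld2, a stress-induced ER protein, differed by 0.16, and Sdf2l1, an ER chaperone cofactor, by 0.09.

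Differences of the genes of ER-associated degradation were of the same size. Edem1, which targets misfolded glycoproteins for degradation, had 0.14, -0.05, 0.06 and 0.15 in WT and 0.19, 0.23, 0.28 and 0.15 in R6/2. The genotypes did not overlap, but R6/2 4 exceeded the highest WT array by less than 0.01, and the Edem1 difference was 0.14 ± 0.07 (SE, n = 4 per genotype; limma adjusted p = 0.375). Herpud1, which organises the degradation complex, had pair differences of 0.15, 0.16, 0.25 and 0.22 and an overall difference of 0.20 ± 0.13 (SE, n = 4 per genotype; limma adjusted p = 0.490). Syvn1, the ubiquitin ligase HRD1, differed by 0.11, and Sel1l, its adaptor, by -0.01.

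Other genes of these pathways, not members of the module, were read from the same fit. Of 36 further ER chaperone, translocation and degradation genes, all tested, 25 were positive with a median of 0.09, and 0 were called by limma; 4 higher and 1 lower had an unadjusted p under 0.05. In all 4 pairs 9 were higher and 5 lower. Over all genes 54% were positive, 9.05% higher and 9.83% lower by the unadjusted p, and 21.5% higher and 16.8% lower in all 4 pairs. Hspa5, which encodes BiP, the main ER chaperone, had a difference of 0.13 (adjusted p = 0.718), and Hsp90b1, which encodes GRP94, of -0.20 (adjusted p = 0.364). These 2 were picked after their values were seen. Of 42 further ATF4 and eIF2 genes 40 were tested (Fgf21 and Gdf15 were too dim), 27 were positive with a median of 0.07, and 0 were called; 1 higher and 1 lower had an unadjusted p under 0.05, and 10 were higher and 1 lower in all 4 pairs.

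The 4 genes of smallest p in these lists were Pdia5, Txndc5, Eif2ak2 and Ssr1. Pdia5, a disulfide isomerase reported to act on ATF6, had -0.16, -0.29, -0.23 and -0.08 in WT and -0.67, -0.59, -1.12 and -0.94 in R6/2. All R6/2 arrays were below WT, and the Pdia5 difference was -0.64 ± 0.12 (SE, n = 4 per genotype; limma adjusted p = 0.0522), just outside the threshold. Txndc5, a further disulfide isomerase, differed by 0.31 (adjusted p = 0.143), Eif2ak2, the eIF2 kinase PKR, by 0.55 (adjusted p = 0.161), and Ssr1, of the translocon, by 0.20 (adjusted p = 0.197).

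In bulk tissue, fewer cells of a type and less RNA per cell cannot be told apart. The summed linear level of 10 markers of striatal projection neurons, all tested and 5 of them called lower, was 659 to 753 in WT and 355 to 479 in R6/2. That of 6 general neuronal markers was 280 to 295 in WT and 234 to 254 in R6/2, with 0 called. Levels of the astrocyte (85.4 to 101 in WT, 80.3 to 91.2 in R6/2), oligodendrocyte (637 to 721, 542 to 683), ependymal (2.25 to 4.67, 3.55 to 4.75) and cortical neuron lists (8.06 to 13.5, 5.41 to 12.1) overlapped. Microglial markers were at 128 to 148 in WT and 111 to 127 in R6/2. Choroid plexus markers varied within both genotypes (55.2 to 241 and 46.1 to 186). No marker of these lists was at background on all arrays, and their part in the differences of Atf6 and the ER genes was not tested.

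WT 3 stood apart in several lists. Endothelial and mural markers summed to 86.3 on WT 3 and to 37.7 to 45.0 on the other 7 arrays. Glucocorticoid-induced genes summed to 99.6 on WT 3 and to 50.9 to 71.5 elsewhere, and immediate early genes to 147 and to 40.7 to 107. Without WT 3 the differences of 22 of the 39 members moved by over 1.5 times or turned sign. Over all arrays left out in turn, 30 of the 39 did so for some array, so such moves were not particular to WT 3. Xbp1 (-0.0034), Ern1 (0.01), Sel1l (-0.01) and Slc7a11 (-0.02), whose differences were very small, did so for most arrays left out. A share over all genes is not given here. Of the members described above, the difference without WT 3 was 0.10 for Manf, 0.11 for Herpud1, 0.09 for Creld2, 0.04 for Vldlr and 0.06 for Phgdh. Without R6/2 1 it was 0.11 for Manf and 0.08 for Creld2.

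All 8 arrays were on 1 slide and were scanned once, and 62.4% to 68.5% of spots were well above background on each, with 0 saturated. The WT arrays filled 1 row of the slide and the R6/2 arrays the other, so position on the slide and genotype cannot be told apart. The replicate number of each array was also its column on the slide. Arrays of a genotype correlated at 0.983 to 0.993 across the probes that stood for the tested genes. Of 17584 genes, 84 were called higher and 258 lower. By probes 129 of 529 calls were higher, and 462 of 1197 with normexp and quantile normalization together and 210 of 575 with quantile normalization alone.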

How the data were processed

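Striatal RNA of 8 samples, 4 WT and 4 R6/2, was measured on 1-colour arrays, 1 array per sample. Per the file headers, the deposited intensity values are the output of Agilent Feature Extraction 10.7.3.1, whose processed signal is background-subtracted and spatially detrended, with no scaling between arrays. The authors also deposited a series table of log2 values. They equal log2 of the processed signal minus a constant per array that leaves 75.0% of values below 0, as found from the values; column medians were -3.48 to -3.27 and no centring of genes was seen. Per the file headers, the p-values in the authors' table are asymptotic, from an unpaired test, and were corrected by Benjamini-Hochberg, and its fold values are ratios without a sign.

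Here, log2 of the processed signal minus log2 of the array's 75th percentile over non-control spots was used. Spots flagged by the scanner software as non-uniform or outlying were removed, and the spots of a probe averaged. Probes well above background on at least 4 of 8 arrays were tested with limma 3.58.1 (lmFit and eBayes, R 4.3.3), with Benjamini-Hochberg adjustment over all 35121 probes and a threshold of 0.05. The tested probe with the highest mean signal stood for its gene. Of 55681 probes, 26756 were named by accession, 5062 by gene number and 373 by symbol through the RefSeq table of GRCm38.p6, 1413 kept the scanner file's symbol and 22077 had none. Probe positions are on mm9, as deposited; their exons and UTRs were not analysed here. The number of arrays limits the precision.

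The members and lists were chosen with earlier results of these data known. Values on every array are given for called members, the 12 of smallest p, those whose genotypes did not overlap, and Atf4, Ddit3, Xbp1, Atf6, Eif2ak3 and Ern1, and values beyond that rule (Cebpb, Ppp1r15a, Ddit4, Manf and Herpud1) were chosen after they were seen. The replicate numbers of the labels were taken as pairs. Over the probes that stood for the tested genes, deviations of same-numbered arrays from their genotype means correlated at 0.278, 0.254, 0.346 and 0.149. Those of all other combinations correlated at 0.034 or less. The deposited array names end in the same number in both genotypes for replicates 1 to 3. For replicate 4, which had the lowest of the same-numbered correlations, they do not. On simulated data with 35121 probes, 200 of them changed, the procedure recovered 49.1% of 1.5-fold, 78.9% of 2-fold and 83.0% of 4-fold changes, with 5 false calls. The simulated noise was independent for each probe and array, without the deviations that same-numbered arrays shared. Recovery and false calls in the real data may therefore differ.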

Additional observations from a re-analysis of the deposited data

Results flagged for a closer look

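Within each genotype, an array was marked when its gap to the nearest other array took up more of the genotype's range than Dixon's critical value for 4 samples allows. Of 78 groups (39 genes in 2 genotypes) 5 had such an array, 6.41%, and chance gives about 1 in 20. Of the 5 arrays, 3 were WT 3. For Asns, WT 3 was at 4.02 and the other WT arrays at 4.43 to 4.48. For Ppp1r15a, WT 3 was at 2.10 and the others at 1.404 to 1.497. For Sel1l, WT 3 was at 1.22 and the others at 1.58 to 1.62. For Eif2ak3, R6/2 3 was at 0.40 and the other R6/2 arrays at 0.59 to 0.60. For Canx, WT 4 was at 5.30 and the other WT arrays at 5.14 to 5.16.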

How the results depend on the processing

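For the 17 genes followed across 18 alternatives, 280 of 306 values kept their direction and their side of the threshold. The count of all called genes (342) was 796 with normexp and quantile normalization together, 610 with array weights, 682 with a trended, robust prior, 538 with the mean of probes, 182 with the replicate block and 82 with no filter on dim probes, where more probes were tested; it was 79 to 329 with 1 array left out, which also leaves fewer samples. Called members (1) numbered 3 with normexp and quantile normalization and 3 with the trended prior (Atf6, Atf4 and Slc7a5), 0 with the replicate block, 0 with no filter and 0 to 1 with an array left out. Atf6 kept its direction throughout, and with no filter its adjusted p was 0.114. The replicate block changed no other call among the members. The ATF4 branch median was 0.12 with normexp and quantile normalization and 0.049 to 0.13 with an array left out; that of the ER genes stayed positive, 0.08 to 0.15. Leaving out 1 array turned the sign of 10 of the 39 members (Xbp1, Eif2ak3, Ern1, Ppp1r15b, Cebpb, Ddit4, Slc7a11, Sel1l, Pdia6 and Hyou1). Of the 17 genes, signs turned for Xbp1 (0.033 with normexp and quantile normalization, 0.012 with quantile normalization alone, 0.013 with array weights, 0.0088 with the authors' values, -0.077 to 0.12 with an array left out), Eif2ak3 (-0.0040 with array weights, -0.047 to 0.076 with an array left out) and Ern1 (-0.042 to 0.11 with an array left out). Beyond the constructions named, the cause was not tested. The slide block was not run because all arrays share 1 slide. At 4 arrays per genotype, differences of the size seen in the ER genes were below the smallest simulated fold.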

Other observations

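Atf3, a factor induced by ATF4 and read here as a gene outside the module after its values were seen, was at -1.42 on WT 1 and at -3.70 or lower on the other 7 arrays, with a difference of -0.63 (limma adjusted p = 0.663). The summed level of immediate early genes on WT 1 was 72.5, within the range of the other arrays.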
